A study of Homo sapiens with 60 samples.

Results

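RNA levels of 10 genes of the cullin ubiquitin ligases were followed through osimertinib treatment and its withdrawal. The genes were chosen by name, by a rule with no expression threshold, and with earlier results of these data known. They were the cullin scaffolds CUL1, CUL2, CUL3, CUL4A, CUL4B and CUL5, the cullin-binding exchange factors CAND1 and CAND2, and the CUL3 substrate receptors KEAP1 and KCTD5. All 10 were found in both deposited tables, out of 19712 genes. The 60 libraries came from 4 established cell lines of EGFR-mutant non-small cell lung cancer: PC9 and H1975, and HCC827 and HCC2935. Each line was taken through 5 arms, each with 3 replicates that the submitters describe as biological triplicates. Parental cells, kept 21 days without drug beforehand, received for 24 h either the vehicle (DMSO) or 500 nM osimertinib, an irreversible inhibitor of mutant EGFR (acute arm). Drug-tolerant persister cells (DTPs) were the cells left after 21 days in 500 nM osimertinib. Washed DTPs were then kept drug-free for 24 h (short washout), or until they proliferated exponentially again (long washout), which took 7 days in PC9, 4 days in HCC827, 3 days in H1975 and 10 days in HCC2935. The length of the long washout therefore went with the line, the DMSO cells had not been through the 21 days of drug, and each line stands for 1 tumour only.

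Cullin ligases attach ubiquitin to proteins that are to be degraded or switched. Each cullin is a scaffold: its C-terminal end holds a RING subunit (RBX1, or RNF7 with CUL5) that brings the ubiquitin-loaded enzyme. Its N-terminal end holds an adaptor and an exchangeable substrate receptor. CUL1 works with SKP1 and F-box proteins, and CUL2 and CUL5 with the elongins ELOB and ELOC and VHL-box or SOCS-box proteins. CUL3 works with BTB-domain proteins, and CUL4A and CUL4B with DDB1 and WD40-repeat receptors. Attachment of the ubiquitin-like protein NEDD8 to the cullin activates the ligase, and the COP9 signalosome removes it. CAND1 then binds the bare cullin and lets receptors be exchanged. KEAP1 brings the antioxidant transcription factor NRF2 to CUL3, and KCTD5 is a CUL3 receptor for G-protein beta-gamma subunits. KEAP1 loss is a known route of reduced response to EGFR inhibitors in lung cancer.

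Depth was 17.7 to 49.1 M estimated counts per library (M for 1000000): 34.7 to 47.1 M in PC9 and 38.7 to 49.1 M in H1975, but 17.7 to 25.1 M in HCC827 and 18.6 to 25.6 M in HCC2935. Depth and line thus went together. Values are given as CPM (counts per 1000000 counts of a library) with TMM normalization within a line, for comparisons between arms, and as TPM (transcripts per 1000000 transcripts, scaled by gene length) where levels of different genes are set side by side. A gene was called when its adjusted p was under 0.05 in edgeR's quasi-likelihood F-test, with Benjamini-Hochberg adjustment over the 14665 to 15379 genes tested in a line. Errors of log2 fold changes are standard errors. The drug labels were checked with ERK-dependent genes: under acute osimertinib 22 of 24 tests of 6 such genes over the 4 lines were called lower. Of the epithelial markers, KRT8, KRT18 and KRT19 were above 394 TPM in every library. EPCAM ranged from 18.1 to 795 TPM and CDH1 from 1.28 to 674 TPM, and no value of NKX2-1 was available. The leukocyte marker PTPRC stayed at or under 3.48 TPM in every library, and PECAM1, PDGFRB and COL1A2, markers of endothelium and fibroblasts, reached 10.2, 8.50 and 42.0 TPM at most. Among the 4 lines H1975 had the lowest medians of EPCAM (23.1 TPM) and CDH1 (2.77 TPM). It also had the highest of COL1A2 (20.1 TPM) and PDGFRB (5.74 TPM).

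Promoter windows from RefSeq (GRCh38.p14, from 250 bases before to 50 bases after a transcription start) were available singly for KCTD5, CAND1, CUL5 and CAND2. The first 3 are shown because they stand for the patterns below: KCTD5 and CAND1 fell under acute osimertinib in all 4 lines, while CUL5 passed the test in none. Capitals mark the letters of the motifs found among 6 that were searched on both strands: CACGTG (the E-box), CCGGAAG (an ETS site), GCGCGAAA (E2F), GTAAACA (FOXO), TGACGTCA (CRE) and TGACNNNGC (the antioxidant response element).
KCTD5, chr16:2682273-2682572, plus strand: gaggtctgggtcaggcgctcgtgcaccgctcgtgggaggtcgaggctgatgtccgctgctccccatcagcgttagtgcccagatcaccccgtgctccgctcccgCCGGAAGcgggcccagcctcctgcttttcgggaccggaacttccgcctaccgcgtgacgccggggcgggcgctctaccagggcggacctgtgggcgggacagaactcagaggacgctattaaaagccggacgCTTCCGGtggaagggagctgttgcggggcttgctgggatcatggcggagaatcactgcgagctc
CAND1, chr12:67269108-67269407, plus strand: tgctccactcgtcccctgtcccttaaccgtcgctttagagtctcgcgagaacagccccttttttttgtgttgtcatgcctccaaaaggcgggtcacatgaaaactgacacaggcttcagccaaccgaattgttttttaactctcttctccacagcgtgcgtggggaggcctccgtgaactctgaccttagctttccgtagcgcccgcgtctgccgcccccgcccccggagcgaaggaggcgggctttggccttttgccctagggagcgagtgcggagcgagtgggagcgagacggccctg
CUL5, chr11:108008648-108008947, plus strand: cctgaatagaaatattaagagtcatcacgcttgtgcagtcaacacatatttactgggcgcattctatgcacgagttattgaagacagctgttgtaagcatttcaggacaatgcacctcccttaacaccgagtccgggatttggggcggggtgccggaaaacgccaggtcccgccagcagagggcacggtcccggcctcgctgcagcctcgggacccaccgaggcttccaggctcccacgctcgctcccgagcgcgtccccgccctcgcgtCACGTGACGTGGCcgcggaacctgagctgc
The KCTD5 window held the ETS letters 2 times, from base 105 and, on the other strand, from base 237 of the 300. The CUL5 window held an E-box from base 271 and, overlapping it, the antioxidant response letters from base 275, and the CAND1 window held none of the 6. Over the 35116 windows of the same length that were searched, the ETS letters were found in 10.3%, the antioxidant response letters in 13.3%, the E-box in 7.26%, the FOXO letters in 3.42%, the CRE letters in 1.85% and the E2F letters in 0.515%. Not every chromosome was covered by the windows searched. These matches describe letters only.

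The genes lie apart in the genome. In GENCODE 29 (GRCh38), CUL1 is at chr7:148697914-148801036, CUL2 at chr10:35008551-35090642, CUL3 at chr2:224470150-224585397, CUL4A at chr13:113208193-113267108, CUL4B at chrX:120524609-120575794, CUL5 at chr11:108008733-108107776, CAND1 at chr12:67269281-67319951, CAND2 at chr3:12796472-12871916, KEAP1 at chr19:10486120-10503741 and KCTD5 at chr16:2682475-2709030. CUL2, CUL3, CUL4B and KEAP1 are on the minus strand, all 10 are protein-coding, and counts are over the gene as a whole. CUL4A and CUL4B are paralogs, yet their annotated transcripts had no run of 31 bases in common, and CUL4B shared none with any other gene. CUL1 shared 12.6% of its runs, with its pseudogene CUL1P1 and the overlapping AC005229.4. The 5' end of CUL4A overlaps PCID2 on the other strand (6.93% of runs shared with other genes), and RPL32 lies within CAND2 on the other strand (8.74%). Whether counting used strand is not given in the sources used here, so reads of these pairs cannot be told apart with certainty.

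Under DMSO the scaffolds differed several-fold in level within a line. In PC9, CUL3 was the highest at 127 ± 5.63 TPM (SD, n = 3). CUL4B, CUL4A and CUL1 followed at 66.7 ± 7.60, 64.3 ± 2.04 and 61.9 ± 2.19 TPM. CUL2 and CUL5 were the lowest at 27.6 ± 1.32 and 15.1 ± 0.629 TPM. CUL2 and then CUL5 were the lowest cullins in each of the 4 lines. CAND1 was at 54.1 to 97.5 TPM and CAND2, the paralog best known from muscle, at 0.10 to 1.59 TPM in mean. KEAP1 lay between 35.6 ± 5.75 TPM in HCC827 and 93.5 ± 11.7 TPM in PC9, and KCTD5 between 29.5 ± 7.48 TPM in HCC827 and 55.3 ± 2.96 TPM in HCC2935. Summed over the 6 cullins, mean levels were 362 TPM in PC9, 286 TPM in H1975, 259 TPM in HCC827 and 241 TPM in HCC2935. Neighbours in the order of levels often overlapped: in PC9, CAND1 overlapped CUL4B, CUL4B overlapped CUL4A and CUL4A overlapped CUL1 in the ranges of their 3 libraries. In HCC827 only CAND1 at the top, and CUL5 and CAND2 at the bottom, stood clear of the next gene. In H1975 KEAP1 overlapped CUL4B, CAND1 overlapped CUL4A, KCTD5 overlapped CUL3 and CUL2 overlapped CUL5. In HCC2935 CUL3, CAND1 and CUL1 overlapped in turn, as did KCTD5, KEAP1 and CUL4A.

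**Figure D1:**
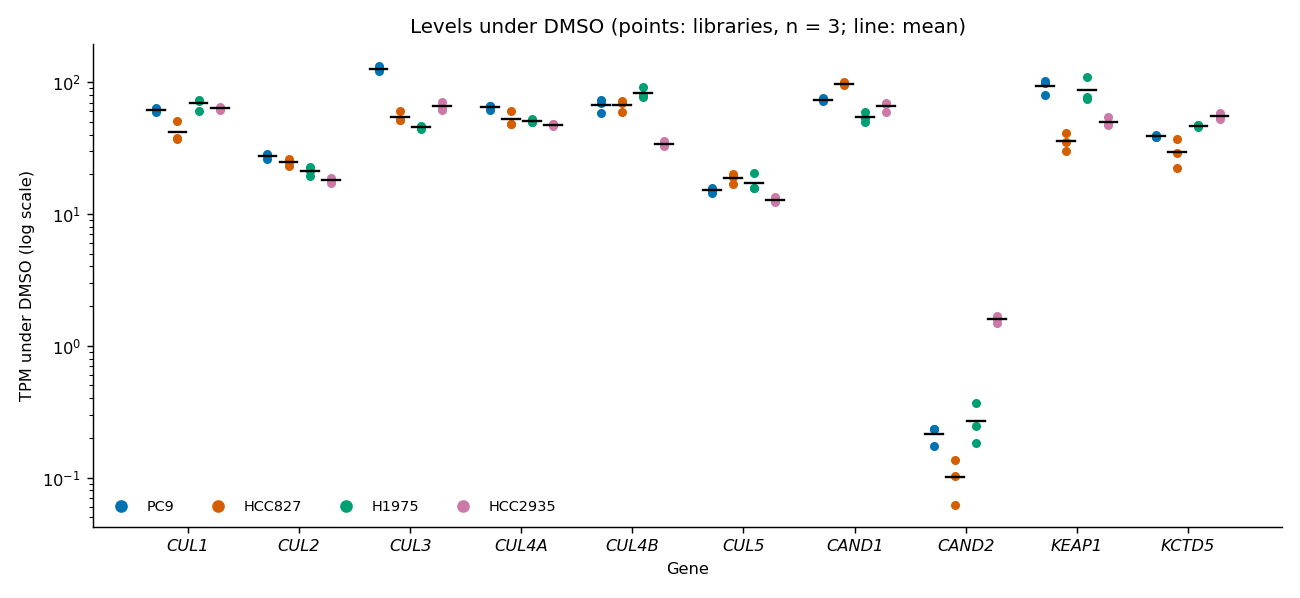
TPM of the 10 genes under DMSO on a log axis, with 1 point for each of 3 libraries a line (colours) and a bar at the mean. CUL2 and CUL5 are the lowest of the 6 cullins in every line, CUL3 reaches 127 ± 5.63 TPM in PC9, and CAND2 lies far below the others, at 0.10 to 1.59 TPM in mean.

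Between lines, all 10 genes differed under DMSO in a joint fit of the 60 libraries (3 contrasts a gene), as did 89.3% of the 16583 genes tested. CUL3 was higher in PC9 than in HCC827, H1975 and HCC2935, by 1.38 ± 0.079, 1.73 ± 0.080 and 1.4 ± 0.079 on the log2 scale (adjusted p = 3.14e-23 to 9.04e-20). CUL4B was higher in PC9, HCC827 and H1975 than in HCC2935, by 1.42 ± 0.11, 1.26 ± 0.11 and 1.47 ± 0.11. KEAP1 differed most between PC9 and HCC827, by 1.56 ± 0.12 (adjusted p = 9.61e-16). CAND2 was higher in HCC2935 than in the other lines: the log2 difference of HCC827 minus HCC2935 was -3.72 ± 0.46. With a minimum of 10 counts in every library, and in limma on the TPM values, CAND2 was filtered out and not tested. It entered the joint fit through the libraries where it was high, so its difference is given as a description. PC9 and H1975 were sequenced to like depths, and so were HCC827 and HCC2935, and the differences of CUL3 between PC9 and H1975 and of CUL4B between HCC827 and HCC2935 are within these pairs. Between the deeper and the shallower pair, line and depth cannot be told apart.

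Exposure to osimertinib for 24 h moved the cullin genes mostly down, with CUL4B as the scaffold that went the other way. Over the 4 lines, 23 of 40 tests of the members were called lower and 5 higher, against 24.5% lower and 26.5% higher among all 59856 tests of genes. The median log2 fold change of the members was -0.31, and that of all genes 0.064. By line, lower and higher calls were 6 and 1 of 10 in PC9 (all genes 31.7% and 34.5%), 6 and 2 in HCC827 (20.2% and 18.7%), 6 and 1 in H1975 (23.8% and 27.8%), and 5 and 1 in HCC2935 (22.2% and 24.9%). In DTPs the same DMSO libraries served as controls, and 18 of 40 tests were lower and 7 higher, against 26.4% and 27.9% of all tests. The line counts in DTPs were 6 lower and 2 higher in PC9 (all genes 33.5% and 35.7%), 4 and 3 in HCC827 (20.4% and 23.0%), 5 and 1 in H1975 (25.7% and 26.0%), and 3 and 1 in HCC2935 (25.8% and 27.0%). The 7 higher in DTPs, and the 3 higher in HCC827, include CAND2 in HCC827, a call that is set aside below. In HCC2935 DTPs the lower share was close to that of all genes. In bulk RNA, fewer cells of a kind and less RNA per cell cannot be told apart. Proliferation genes (MKI67, TOP2A, CDK1, CCNB1, MCM2 and PCNA) were called lower in 24 of 24 tests in the acute arm (median log2 fold change -2.14) and in 24 of 24 in DTPs (median -1.49). Epithelial markers were called lower in 7 and higher in 6 of 20 tests at 24 h, and in 14 and 2 in DTPs. The 4 markers of other cells were higher in 4 and lower in 0 of 13 tests at 24 h, and in 6 and 2 in DTPs. The part of these genes and of proliferation in the cullin results was not tested.

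**Figure D2:**
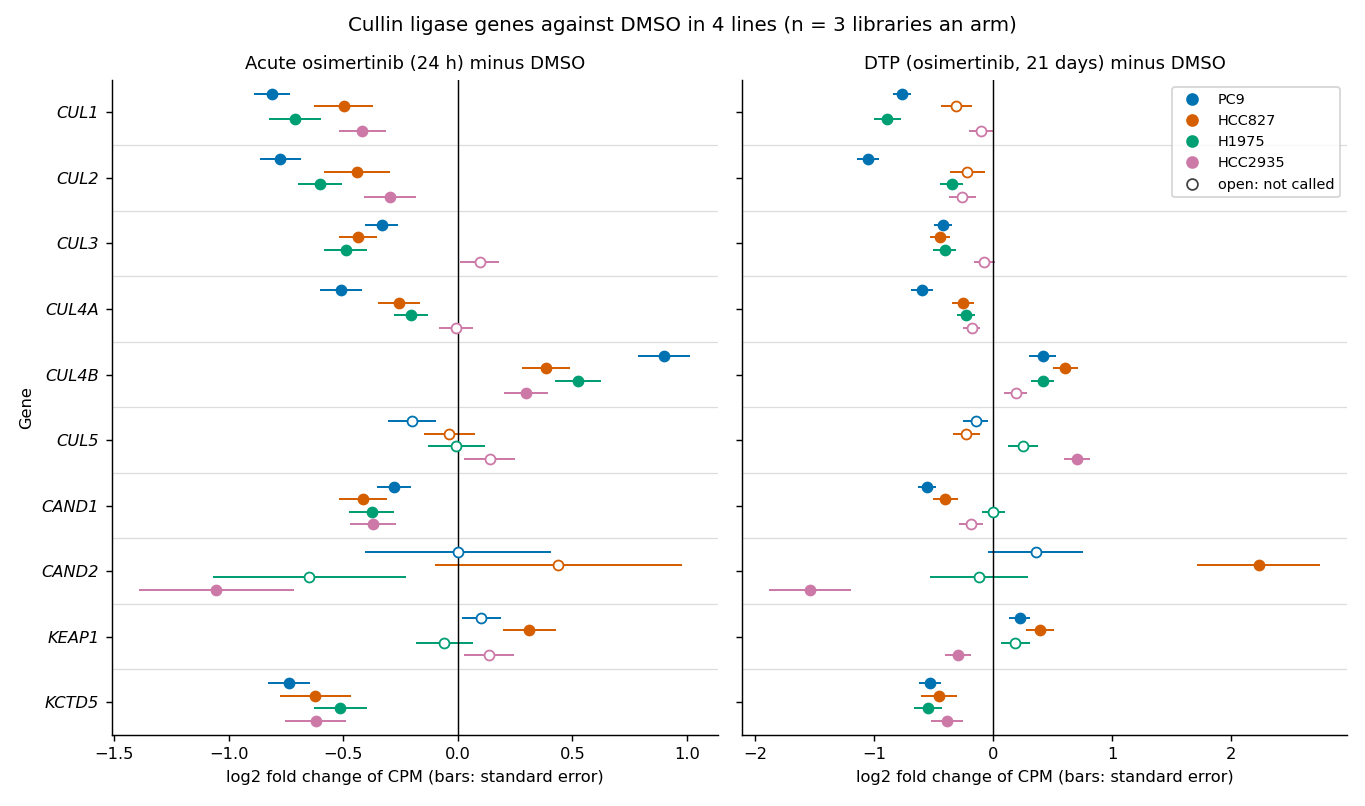
Log2 fold changes of the 10 genes against DMSO (x axis, bars: standard error) in the acute arm (left) and in DTPs (right), by line (colours), with filled points for called genes and a wider x axis on the right. CUL1, CUL2, CAND1 and KCTD5 lie left of 0 and filled in all 4 lines in the acute arm, and CUL4B lies right of 0 in all 4.

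CUL1, the scaffold of the SKP1 and F-box ligases, was lower in the acute arm of all 4 lines. In PC9 the 3 DMSO libraries gave 157, 148 and 161 CPM and the acute libraries 89.0, 85.3 and 90.8 CPM, a fall of 43.0% (log2 -0.81 ± 0.078, adjusted p = 6.54e-07). In H1975 DMSO gave 176, 138 and 175 CPM and the acute arm 88.1, 112 and 97.9 CPM (log2 -0.71 ± 0.11, adjusted p = 1.26e-04). The groups did not overlap in either line. The smaller log2 fold changes of -0.50 in HCC827 and -0.42 in HCC2935 also passed the test (adjusted p = 0.00630 and 0.00377). In DTPs CUL1 stayed low in PC9, at 93.5, 89.7 and 90.5 CPM, and in H1975, at 86.1, 97.1 and 80.4 CPM. The log2 fold changes against DMSO were -0.77 ± 0.078 and -0.89 ± 0.11 (adjusted p = 1.3e-06 and 2.12e-05). In HCC2935 DTPs it was at 126, 110.0 and 121 CPM beside 126, 133 and 125 under DMSO and 95.5, 106 and 85.6 in the acute arm. That is 0.31 ± 0.10 above acute (adjusted p = 0.0221), and the difference from DMSO was -0.10 with an interval of 2 standard errors from -0.31 to 0.10. In HCC827 DTPs the difference from DMSO of -0.31 ± 0.13 missed the threshold (adjusted p = 0.0622), and it passed in 4 of 12 other settings. The 3 DMSO libraries there were at 89.6, 119 and 91.0 CPM. The HCC2935 difference from acute was not called without DTP replicate 1 or 3 or acute replicate 1 or 3, adjusted p = 0.0531 to 0.103.

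CUL2, which carries VHL among its receptors, was also lower in the acute arm of all 4 lines, with its largest fall in PC9. There it went from 78.2, 71.0 and 77.6 CPM under DMSO to 42.2, 41.7 and 48.5 CPM in the acute arm and 34.9, 33.0 and 41.4 CPM in DTPs. All acute and DTP libraries lay below all DMSO libraries. The fall was 41.6% at 24 h (adjusted p = 3.20e-06) and 51.7% in DTPs (adjusted p = 3.80e-07). In H1975 CUL2 fell by 34.1% at 24 h (adjusted p = 1.20e-04) and was 21.4% lower in DTPs (adjusted p = 0.00684). The acute fall was smaller in HCC827 (log2 -0.44 ± 0.14, adjusted p = 0.0250) and in HCC2935 (-0.30 ± 0.11, adjusted p = 0.0439), and in DTPs of these lines the values of -0.22 and -0.26 were not called. Leaving out 1 library ended the acute calls of CUL2 in HCC827 (without DMSO replicate 2 or 3 or acute replicate 2 or 3, adjusted p = 0.0667 to 0.131) and CUL2 in HCC2935 (without DMSO replicate 1 or 2 or 3 or acute replicate 2 or 3, adjusted p = 0.0688 to 0.120). DTPs against acute cells gave -0.28 ± 0.090 in PC9 and 0.25 ± 0.096 in H1975, calls of opposite sign that were lost for CUL2 in PC9 (without DTP replicate 1 or 2 or acute replicate 3, adjusted p = 0.0955 to 0.126) and CUL2 in H1975 (without DTP replicate 1 or 2 or acute replicate 1 or 2 or 3, adjusted p = 0.0656 to 0.160), and under 6 of 12 and 10 of 12 other settings.

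CUL3, the scaffold of the KEAP1 and KCTD5 ligases, fell in 3 lines and not in HCC2935. PC9 went from 279.5, 270.0 and 299 CPM under DMSO to 222, 225 and 226 CPM in the acute arm. HCC827 went from 108, 128 and 112 to 87.9, 82.6 and 86.7 CPM, and H1975 from 97.5, 89.9 and 101 to 67.7, 69.1 and 68.2 CPM. In each of these lines the groups did not overlap. The falls of 20.6%, 26.2% and 28.8% had adjusted p-values of 6.21e-04 to 9.54e-04. In HCC2935 the acute libraries were at 131, 132 and 114 CPM and DMSO at 113, 116 and 124 CPM, a log2 difference of 0.096 ± 0.086 with an interval from -0.075 to 0.27. In DTPs the log2 values were -0.42, -0.45 and -0.41 in the first 3 lines (adjusted p = 1.29e-04 to 0.00240) and -0.073 in HCC2935 (interval -0.24 to 0.098). The PC9 call in DTPs was lost in limma on the TPM values. On log2 TPM the median of the PC9 genes tested was 0.16 higher than on the TMM scale. These medians are over different sets of genes (12586 and 14866), so their difference is not the shift of each gene.

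KEAP1, the receptor that hands NRF2 to CUL3, was called lower in none of the 3 lines in which CUL3 fell. At 24 h its 1 call was a rise in HCC827, from 59.9, 69.8 and 52.3 to 73.1, 70.5 and 82.3 CPM (log2 0.31 ± 0.12, adjusted p = 0.0468). The groups did not overlap, yet the call was lost with 1 library left out, for KEAP1 in HCC827 (without DMSO replicate 1 or 3 or acute replicate 1 or 2 or 3, adjusted p = 0.0541 to 0.161), and under 5 of 12 other settings. In DTPs it was higher than DMSO in HCC827, at 86.8, 68.2 and 84.5 CPM (log2 0.40 ± 0.12, adjusted p = 0.0131). It was also higher in PC9, at 216, 179 and 191 against 182, 176 and 145 CPM (log2 0.22 ± 0.087, adjusted p = 0.0334), with overlapping groups in both. In HCC2935 DTPs it was lower, at 58.1, 51.6 and 66.1 CPM against 69.1, 80.2 and 66.9 under DMSO and 82.3, 79.2 and 76.3 in the acute arm. The HCC2935 difference was -0.30 ± 0.11 against DMSO (adjusted p = 0.0304) and -0.44 ± 0.11 against acute (adjusted p = 0.00414), a call that limma did not make, and no DTP library reached the lowest of either group. H1975 gave 0.19 (interval -0.060 to 0.43). Each of the calls against DMSO in DTPs was lost when 1 library was left out: KEAP1 in PC9 (without DMSO replicate 3 or DTP replicate 1 or 3, adjusted p = 0.0839 to 0.192), KEAP1 in HCC827 (without DMSO replicate 3 or DTP replicate 1 or 3, adjusted p = 0.0557 to 0.0962) and KEAP1 in HCC2935 (without DMSO replicate 2 or DTP replicate 1 or 2, adjusted p = 0.0680 to 0.148). The ratio of KEAP1 to CUL3, on the TPM scale and free of library scaling, went from 0.810, 0.812 and 0.603 under DMSO to 1.21, 1.05 and 1.20 in DTPs of PC9, and from 0.687, 0.680 and 0.581 to 1.33, 0.983 and 1.20 in HCC827. In H1975 it went from 1.68, 2.47 and 1.59 to 2.86, 2.57 and 3.26, while in HCC2935 it was 0.761, 0.858 and 0.671 under DMSO and 0.649, 0.585 and 0.716 in DTPs. The DTP and DMSO groups of this ratio did not overlap in PC9, HCC827 or H1975 and overlapped in HCC2935. With 3 against 3 libraries an exact permutation test cannot go below p = 0.1, so none was made.

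KCTD5 fell in every line at 24 h, and was called lower in DTPs of every line with less support in HCC827 and HCC2935. In PC9 the values were 71.6, 68.1 and 69.7 CPM under DMSO, 45.6, 37.7 and 42.3 in the acute arm and 51.3, 44.0 and 49.5 in DTPs. In H1975 they were 81.3, 77.3 and 79.1 CPM under DMSO, 51.1, 59.9 and 55.6 in the acute arm and 53.0, 61.8 and 47.6 in DTPs. In HCC2935 DMSO gave 80.1, 86.1 and 74.2 CPM, the acute arm 57.5, 48.0 and 50.7 and DTPs 65.0, 51.2 and 67.7. No treated library of these 3 lines reached the lowest DMSO library. In HCC827 the DMSO libraries were spread, at 49.5, 62.8 and 39.0 CPM. The acute libraries lay below them at 33.2, 35.3 and 29.9 CPM and the DTP libraries, at 41.2, 31.4 and 37.7 CPM, overlapped them. The acute falls were 40.1%, 35.0%, 29.9% and 35.0% in PC9, HCC827, H1975 and HCC2935 (adjusted p = 6.17e-06 to 0.00551). All 4 were kept in each of the 12 other settings and with any 1 library left out. The DTP log2 values of -0.55 to -0.39 were called too (adjusted p = 1.20e-04 to 0.0270), with losses for KCTD5 in HCC827 (without DMSO replicate 1 or 2 or DTP replicate 2, adjusted p = 0.0512 to 0.159) and KCTD5 in HCC2935 (without DMSO replicate 2 or DTP replicate 2, adjusted p = 0.0802 to 0.113). Those 2 calls were also lost under 5 of 12 and 3 of 12 other settings, limma on both TPM scales among them. The KCTD5 promoter is the one shown above with the ETS letters at 2 places.

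**Figure D3:**
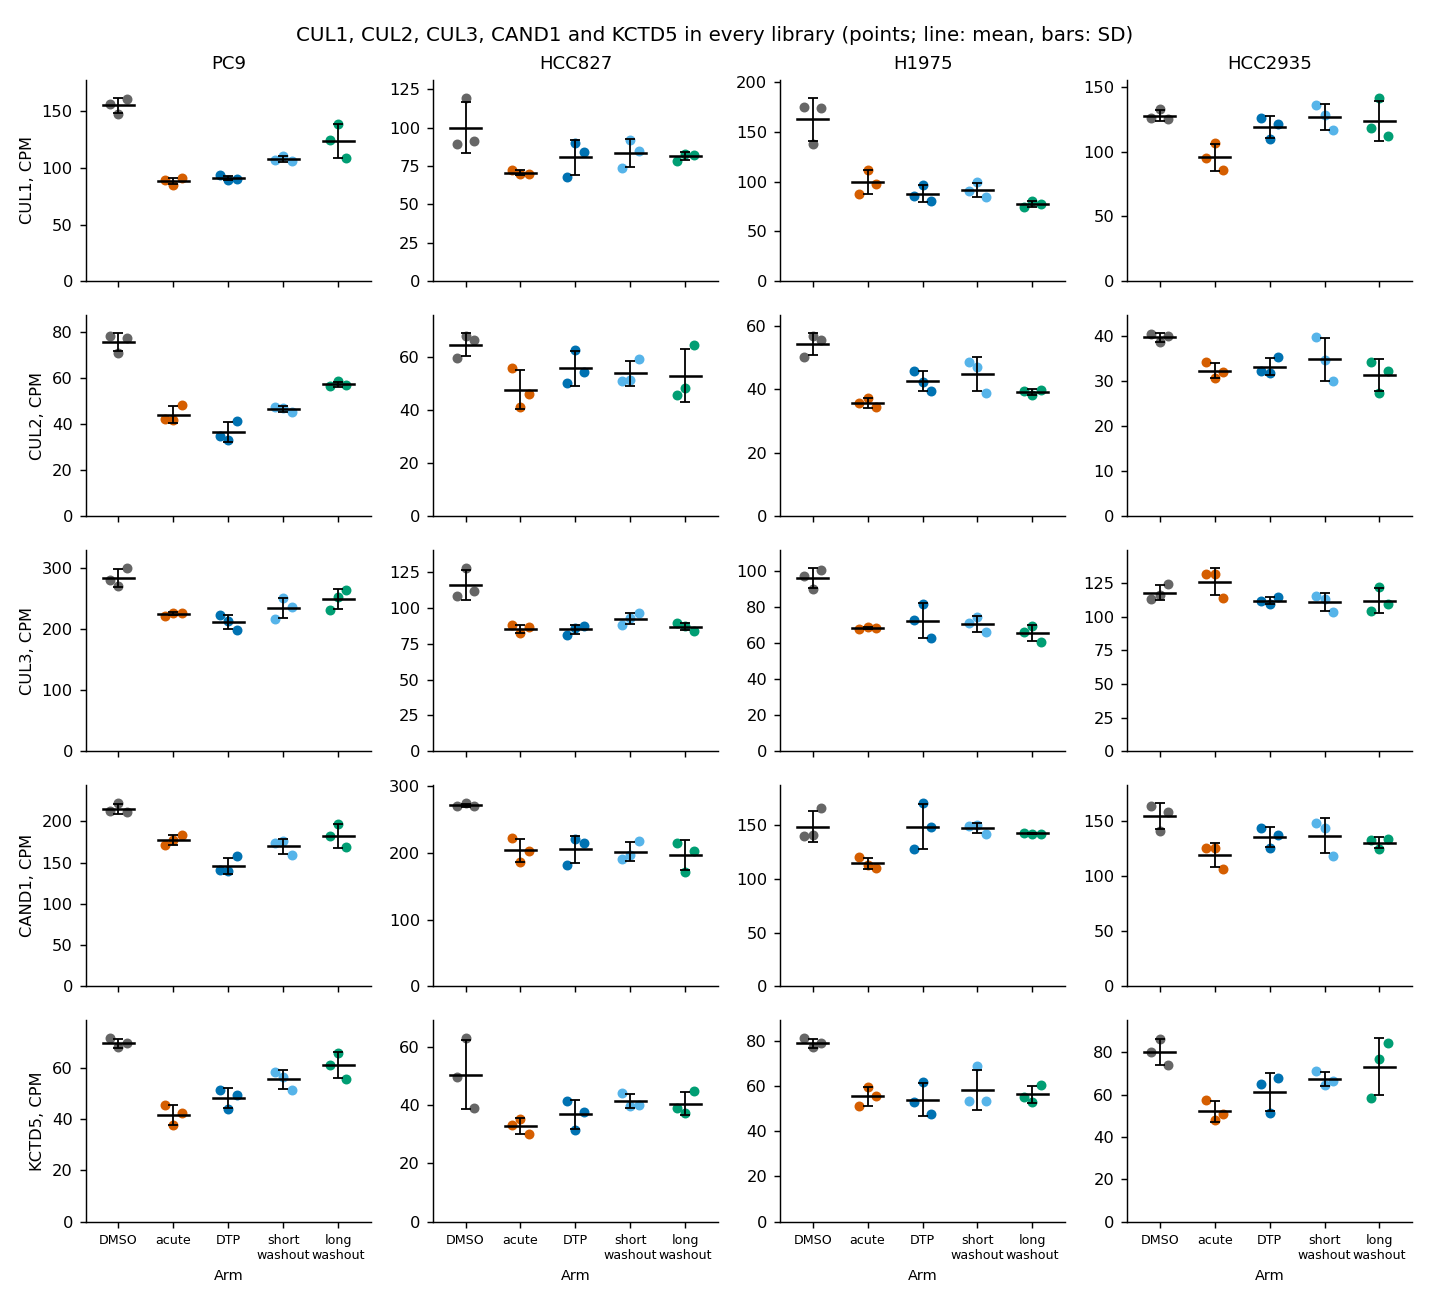
CPM (y axis, from 0) of CUL1, CUL2, CUL3, CAND1 and KCTD5 in each library (points) of the 5 arms and 4 lines, with mean and SD. In PC9 all 5 genes drop from DMSO to the acute arm and climb again from DTPs to the long washout, where CUL2 reaches 57.3 ± 1.15 CPM against 75.6 ± 3.99 under DMSO.

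CUL4A and CUL4B, the paralogs that share DDB1 and its receptors, moved in opposite directions in PC9 and H1975, and with little support for CUL4A in HCC827. CUL4B rose in the acute arm of all 4 lines: from 183, 217 and 231 to 345, 472 and 362 CPM in PC9, from 214, 175 and 211 to 268, 252 and 266 CPM in HCC827 and from 229, 262 and 241 to 401, 344 and 309 CPM in H1975. In HCC2935, where its level was lowest, it went from 84.1, 85.9 and 88.3 to 110.0, 103 and 104 CPM. Every acute library exceeded every DMSO library of its line, by 86.7%, 30.6%, 43.9% and 22.8% on average (adjusted p = 7.48e-06, 0.00978, 4.86e-04 and 0.0198). CUL4A was lower at 24 h in PC9, at 101, 97.6 and 93.6 CPM against 141, 133 and 143 (log2 -0.51 ± 0.091, adjusted p = 1.78e-04), and less so in HCC827 (-0.26 ± 0.092, adjusted p = 0.0386) and H1975 (-0.21 ± 0.074, adjusted p = 0.0308). In HCC2935 it was -0.0092 ± 0.074 with an interval from -0.16 to 0.14. In DTPs CUL4B was higher than DMSO by 0.41, 0.61 and 0.42 in PC9, HCC827 and H1975 (adjusted p = 3.69e-04 to 0.00468). In HCC2935 the value of 0.19 was not called (adjusted p = 0.113). In PC9 DTPs, at 285, 295 and 261 CPM, it stood below the acute arm (log2 -0.49 ± 0.11, adjusted p = 0.00444), a call that limma on the TPM values did not make. CUL4A in DTPs was -0.60, -0.26 and -0.23 in the same 3 lines (adjusted p = 4.33e-05 to 0.0348). In HCC2935 it was -0.18 (adjusted p = 0.0505), and it passed there with RLE size factors, library size only, DESeq2 or all 60 libraries in 1 fit. The CUL4A calls of HCC827 were lost under 9 of 12 other settings at 24 h, RLE size factors, no filter, limma and the replicate block among them, and under 6 of 12 in DTPs. In H1975 they were lost under 2 of 12 and 3 of 12. Single libraries also carried the weaker calls: at 24 h those of CUL4A in HCC827 (without DMSO replicate 2 or 3 or acute replicate 1 or 2 or 3, adjusted p = 0.0532 to 0.192), CUL4A in H1975 (without DMSO replicate 3 or acute replicate 2 or 3, adjusted p = 0.0576 to 0.120) and CUL4B in HCC2935 (without DMSO replicate 1 or 2 or acute replicate 1, adjusted p = 0.0541 to 0.0668). In DTPs single libraries carried those of CUL4A in HCC827 (without DMSO replicate 2 or DTP replicate 1 or 2 or 3, adjusted p = 0.0604 to 0.166) and CUL4A in H1975 (without DMSO replicate 3 or DTP replicate 1 or 3, adjusted p = 0.0511 to 0.0723).

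The ratio of CUL4B to CUL4A, which does not depend on library scaling, was higher with drug in each line. In PC9 the TPM ratio was 0.889, 1.12 and 1.11 in the DMSO libraries, 2.34, 3.31 and 2.64 in the acute libraries and 2.05, 2.28 and 1.95 in DTPs. HCC827 gave 1.5, 0.987 and 1.42 under DMSO, 2.02, 1.97 and 2.00 in the acute arm and 2.1, 2.27 and 2.62 in DTPs. H1975 gave 1.54, 1.83 and 1.51 under DMSO, then 3.02, 2.60 and 2.43 at 24 h, then 2.67, 2.34 and 2.61 in DTPs. HCC2935, with CUL4A the more abundant of the pair under DMSO, gave 0.702, 0.690 and 0.744 there, 0.925, 0.848 and 0.867 at 24 h and 0.850, 0.994 and 0.924 in DTPs. No acute or DTP library of a line had a ratio as low as any of its DMSO libraries. After the long washout the mean ratio was 1.59 ± 0.347 in PC9, 2.32 ± 0.185 in HCC827, 2.75 ± 0.128 in H1975 and 0.914 ± 0.0868 in HCC2935 (SD, n = 3). The DMSO means were lower, at 1.04 ± 0.129, 1.3 ± 0.277, 1.63 ± 0.175 and 0.712 ± 0.0282, with no overlap of the 2 groups in any line. As a share of the summed TPM of the 6 cullins, CUL4B went from 18.4 ± 1.79% under DMSO to 37.1 ± 4.15% in the acute arm of PC9 and from 28.8 ± 2.42% to 44.0 ± 3.33% in H1975. It went from 25.9 ± 3.95% to 36.8 ± 0.530% in HCC827 and from 14.1 ± 0.259% to 17.7 ± 0.977% in HCC2935. CUL1 went the other way, from 17.1 ± 0.429% to 10.6 ± 0.915% in PC9 and from 24.1 ± 2.83% to 15.8 ± 2.26% in H1975.

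**Figure D4:**
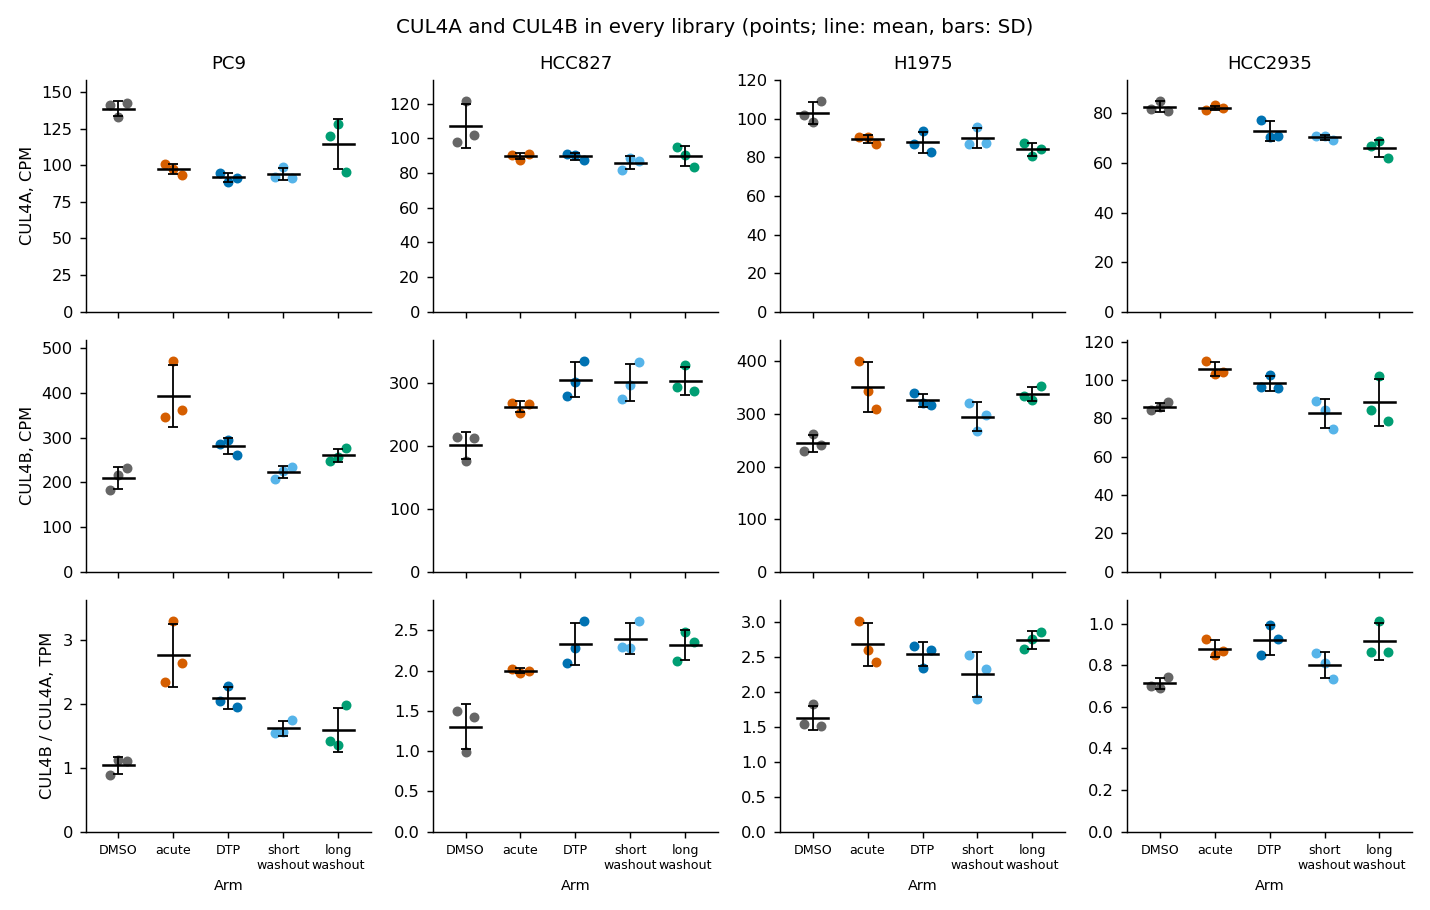
CUL4A (top) and CUL4B (middle) in CPM, and the ratio of their TPM values (bottom), in each library (points) of the 5 arms and 4 lines, with mean and SD and y axes from 0. The mean ratio is lowest under DMSO in every line and reaches 2.76 ± 0.494 in the acute arm of PC9.

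CUL5, the scaffold of the SOCS-box ligases, was the 1 cullin of the 6 with no call at 24 h, with log2 values of -0.20 to 0.14. None of its 4 tests was under an unadjusted p of 0.05 in edgeR, and neither DESeq2 nor limma called it. The intervals of 2 standard errors were -0.41 to 0.0091 in PC9, -0.26 to 0.19 in HCC827, -0.26 to 0.24 in H1975 and -0.082 to 0.36 in HCC2935. In PC9 the acute libraries, at 53.1, 48.2 and 47.1 CPM, all lay below the DMSO libraries, at 59.3, 54.3 and 56.8 CPM, without a call (adjusted p = 0.106), although the 6 libraries fitted on their own gave one (adjusted p = 0.0320). In HCC2935 it was higher in DTPs, at 63.6, 56.8 and 69.0 CPM, than under DMSO, at 38.6, 41.3 and 36.2 CPM, and in the acute arm, at 44.2, 46.6 and 37.3 CPM. The rise over DMSO was 63.0% (log2 0.70 ± 0.11, adjusted p = 6.43e-05) and that over acute 47.9% (adjusted p = 6.25e-04), with no overlap of libraries. Both were kept in every setting and with any 1 library left out. DTPs of PC9, HCC827 and H1975 gave -0.15, -0.22 and 0.25, none called.

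CAND1, the exchange factor of unneddylated cullins, was lower at 24 h in all 4 lines. It went from 212, 222 and 211 to 171, 177 and 183 CPM in PC9, from 270.0, 274 and 270.0 to 222, 187 and 202 CPM in HCC827 and from 139.6, 141 and 166 to 121, 113 and 111 CPM in H1975. HCC2935 went from 164, 141 and 157 to 125, 125 and 107 CPM. The groups did not overlap in any line. The log2 fold changes were -0.28, -0.41, -0.38 and -0.37 (adjusted p = 0.00370 to 0.00634). These calls too were kept in every setting and with any 1 library left out. In DTPs the lines parted: CAND1 fell further in PC9, to 141, 139 and 158 CPM (log2 -0.56 against DMSO and -0.28 ± 0.073, adjusted p = 0.00913 against acute). It remained lower than DMSO in HCC827 (-0.40 ± 0.11, adjusted p = 0.00653). In H1975 it was back at 128, 170.4 and 148 CPM, 0.38 ± 0.098 above acute (adjusted p = 0.00807) and 0.00017 ± 0.098 from DMSO. HCC2935 DTPs gave -0.19 against DMSO (interval -0.39 to 0.010). The PC9 difference between DTP and acute was not called by library size only or by limma on TPM. The TPM of CAND1 over that of all 6 cullins went from 0.377 ± 0.0159 to 0.308 ± 0.0156 in the acute arm of HCC827 and from 0.271 ± 0.0247 to 0.215 ± 0.00877 in HCC2935. It went from 0.189 ± 0.0138 to 0.156 ± 0.00550 in H1975 and from 0.203 ± 0.0135 to 0.181 ± 0.0114 in PC9. The libraries of the 2 arms overlapped in PC9 only.

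CAND2 was scarce, with 5 to 114 counts in a library, and reads of RPL32 cannot be told apart from its own with certainty, as said above. In HCC827 it gave 0.311, 0.427 and 0.227 CPM under DMSO, 0.384, 0.510 and 0.414 in the acute arm and 2.04, 1.18 and 1.36 in DTPs. These are 5 to 9 counts a library under DMSO, 7 to 11 in the acute arm, 24 to 40 in DTPs and 22 to 44 after the long washout, so that the gene passed the low-count filter only through the arms where it was high. Its calls in HCC827, in DTPs against DMSO and against acute and after the long washout against DMSO, are therefore no support for a change, and no fold or p is given for them. In HCC2935, the line with the most CAND2, it fell from 4.74, 4.44 and 3.98 CPM to 2.05, 2.44 and 1.85 at 24 h and 1.59, 1.20 and 1.74 in DTPs (log2 -1.05 ± 0.34, adjusted p = 0.0174, and -1.54 ± 0.34, adjusted p = 0.00132). In PC9 and H1975 standard errors of 0.40 and 0.41 left changes of either sign possible. The HCC2935 DTP libraries all lay below the DMSO libraries. The HCC2935 acute call depended on single libraries, for CAND2 in HCC2935 (without DMSO replicate 1 or acute replicate 3, adjusted p = 0.0517 to 0.0586).

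**Figure D5:**
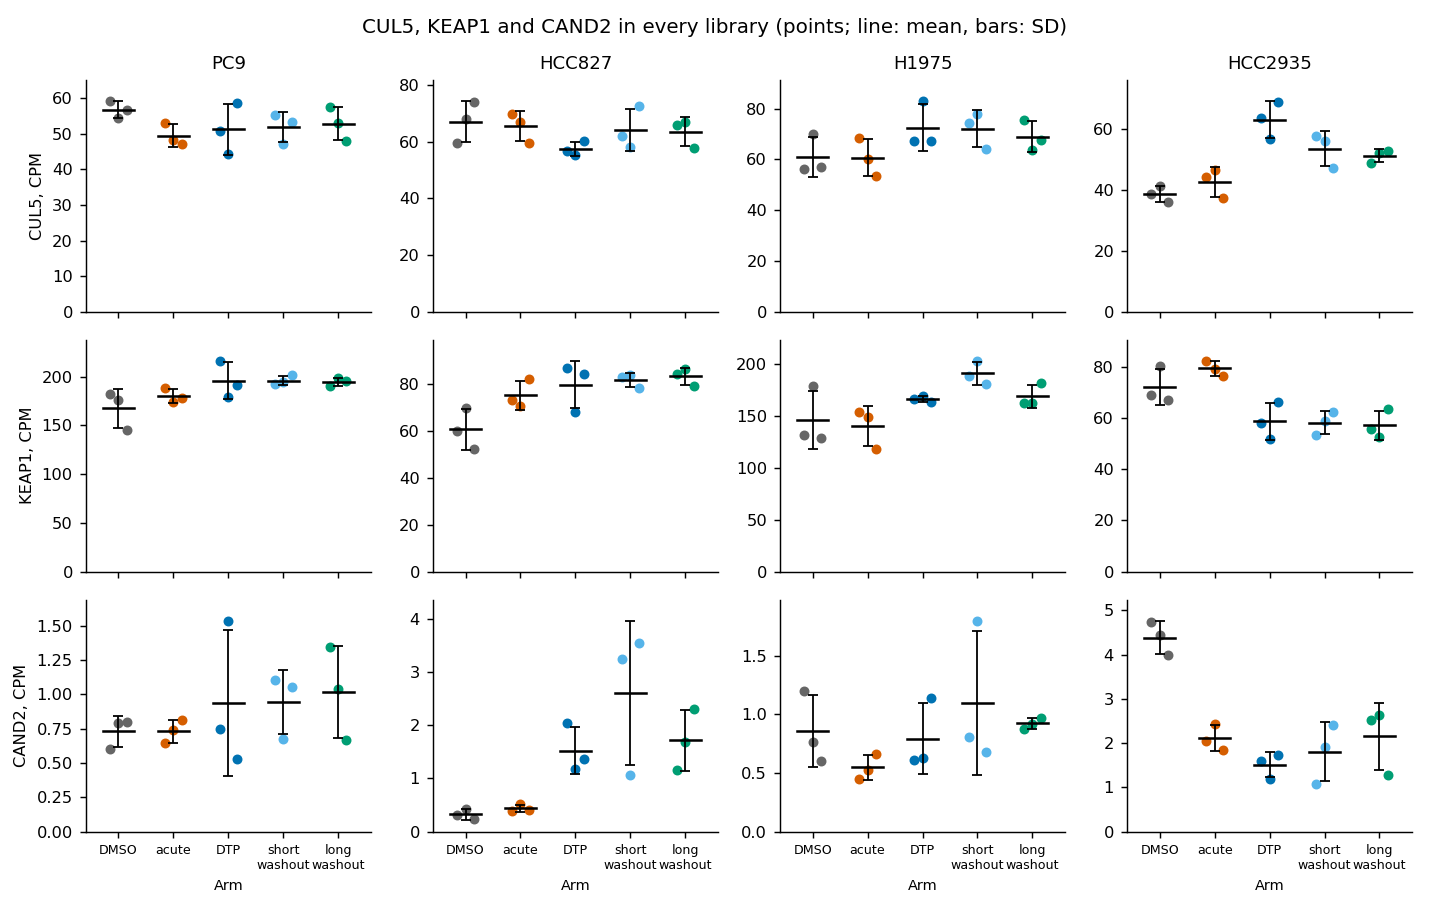
CPM (y axis, from 0) of CUL5, KEAP1 and CAND2 in each library (points) of the 5 arms and 4 lines, with mean and SD. HCC2935 DTPs hold more CUL5 (63.1 ± 6.15 CPM) than DMSO cells (38.7 ± 2.58 CPM), and CAND2 is lower in DTPs of HCC2935 (1.51 ± 0.281 CPM) than under DMSO (4.38 ± 0.382 CPM).

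Whether the effect of the drug differed between the lines was tested with 3 contrasts a gene in the fit of all 60 libraries. At 24 h it differed for 3 of 10 members, CUL3 (adjusted p = 2.31e-04), CUL4B (0.00331) and CUL4A (0.00382), against 41.4% of all genes. CUL1 (0.105), CUL2 (0.0696), CAND1 (0.847), KCTD5 (0.744), CUL5 (0.398), KEAP1 (0.219) and CAND2 (0.138) did not pass. CUL1 and CUL2 passed with library size only. CUL2 also passed in DESeq2, with only the libraries of the arms compared and without H1975 DMSO replicate 1. CUL1 also passed in limma on either TPM scale and without DMSO replicate 2 of H1975 or of HCC827. For DTPs the effect differed for 8 of 10, against 63.9% of all genes, and the exceptions were KCTD5 (0.864) and CUL4B (0.0997). CAND2 is 1 of the 8, but its test includes the HCC827 values set aside above, so its call is no support for a difference. Of the others, the smallest adjusted p-values were those of CUL5 (7.31e-06), CUL2 (2.18e-05) and CUL1 (5.13e-05). With library size only, CUL4B passed and CUL4A did not in DTPs.

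DTPs were also set against acute cells, which answers how 21 days of drug differ from 24 h. Of 40 tests of members, 5 were called higher and 4 lower, against 18.8% and 17.6% of all tests. The 9 calls are those given above for CUL1, CUL5 and KEAP1 in HCC2935, CUL2 and CAND1 in PC9 and H1975, CUL4B in PC9 and CAND2 in HCC827. That of CAND2, counted in the 5 higher, is set aside above. CUL3, CUL4A and KCTD5 were called in none of the lines, with log2 values of -0.17 to 0.083, -0.17 to -0.00024 and -0.036 to 0.23. The CUL4A value of -0.086 in PC9 turned to a called rise of 0.19 in limma on log2 TPM and of 0.18 on log2(TPM + 1). On log2 TPM the median of the PC9 genes tested was 0.24 higher in this comparison, over a smaller set of genes.

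After 24 h without drug few members were called. Of 40 tests, 1 was called higher and none lower in edgeR, against 1.56% and 0.713% of all tests, and it was CUL2 in PC9, from 34.9, 33.0 and 41.4 to 47.6, 47.1 and 45.1 CPM (log2 0.35 ± 0.089, adjusted p = 0.0342). The groups did not overlap, but the call was lost with 1 library left out, for CUL2 in PC9 (without DTP replicate 1 or 2 or short washout replicate 1 or 2 or 3, adjusted p = 0.0674 to 0.152), and under 4 of 12 other settings. CUL4B in PC9, from 285, 295 and 261 to 208, 225 and 234 CPM, was at -0.33 ± 0.11, adjusted p = 0.0902 and was called when the 6 libraries were fitted on their own or with DESeq2. At an unadjusted p under 0.05 there were 4 higher and 3 lower, and DESeq2 called 1 lower, which was CUL4B. In HCC827 and H1975, where same-numbered DTP and short washout libraries deviated together, the replicate block made no call of a member either.

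After the long washout 6 of the 10 genes were higher in PC9 than in its DTPs. Over the 4 lines 6 of 40 tests were called higher than in DTPs and none lower, against 6.78% and 5.4% of all tests, and all of these calls came from PC9, where 20.4% of all genes were called higher and 16.8% lower. At an unadjusted p under 0.05 edgeR had 1 lower, DESeq2 called none, and limma on either TPM scale called 1, CUL5 in HCC2935 (adjusted p = 0.0495 and 0.0497). CUL2 went from 34.9, 33.0 and 41.4 CPM in DTPs to 56.4, 58.6 and 57.0 CPM, a rise of 57.3% (adjusted p = 8.77e-04), and CUL1 from 93.5, 89.7 and 90.5 to 124, 138 and 109 CPM, a rise of 35.6% (adjusted p = 0.00142). No long washout library of either gene was as low as a DTP library. CUL3, CUL4A, CAND1 and KCTD5 rose by 17.7%, 25.0%, 25.0% and 26.6% (adjusted p = 0.0212, 0.0141, 0.00449 and 0.0108). Those of CUL3 in PC9 (without DTP replicate 2 or 3 or long washout replicate 2, adjusted p = 0.0520 to 0.0589), CUL4A in PC9 (without DTP replicate 2 or long washout replicate 1 or 2, adjusted p = 0.0518 to 0.0775) and KCTD5 in PC9 (without DTP replicate 2 or long washout replicate 2, adjusted p = 0.0526 to 0.0539) were lost with 1 library left out, and limma on either TPM scale did not call CUL3. In the same comparison the proliferation list was called higher in 6 of 6 tests in PC9 and in 6 of 6 in HCC2935, and in none in HCC827 (median log2 0.00085) or H1975 (-0.21). The part of proliferation in these calls was not tested. Whether the long washout effect differed between lines was not tested, and its length differed between them.

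Long washout cells still differed from DMSO cells, the same libraries that served as controls above. Of 40 tests, 17 were called lower and 6 higher, against 22.1% and 23.8% of all tests. The 6 include CAND2 in HCC827, a call set aside above. In PC9, 5 were lower and 1 higher, against 21.5% and 23.4% of all genes, and limma on either TPM scale called none of the 5, CUL1, CUL2, CUL3, CUL4A and CAND1, with values on log2 TPM of -0.17, -0.23, -0.021, -0.12 and -0.070. On that scale the median of the PC9 genes tested was 0.13 higher, over a smaller set of genes. CUL4A was lower in each of the 4 lines (log2 -0.33 to -0.26, adjusted p = 0.00218 to 0.0360), with losses under 6 of 12 other settings in PC9 and 6 of 12 in HCC827, and CUL2 in PC9, H1975 and HCC2935 (-0.47 to -0.34). CUL4B stayed higher in PC9, HCC827 and H1975 (0.31, 0.60 and 0.47, adjusted p = 4.51e-04 to 0.0395). CUL1 was furthest from DMSO in H1975, at 74.8, 80.5 and 78.0 CPM, a difference of -1.07 ± 0.11, adjusted p = 4.36e-06. In HCC2935 CUL5 was still 32.4% higher (adjusted p = 0.00762), at 48.9, 52.1 and 52.9 CPM, and KEAP1 and CAND2 still lower (-0.34 and -1.02). HCC827 kept the higher KEAP1 (0.46 ± 0.12, adjusted p = 0.00585) and the lower CUL3 (-0.42) and CAND1 (-0.47). KCTD5 was called lower in H1975 only (-0.49 ± 0.12, adjusted p = 0.00246), with -0.19, -0.32 and -0.13 in PC9, HCC827 and HCC2935. Single libraries ended the calls of CUL2 in HCC2935 (without DMSO replicate 1 or 3 or long washout replicate 2, adjusted p = 0.0512 to 0.0762), CUL3 in PC9 (without DMSO replicate 1 or 3 or long washout replicate 1 or 2, adjusted p = 0.0618 to 0.179), CUL4A in PC9 (without DMSO replicate 1 or 3 or long washout replicate 3, adjusted p = 0.0629 to 0.0753), CUL4A in HCC827 (without DMSO replicate 2 or long washout replicate 2 or 3, adjusted p = 0.0749 to 0.171), CUL4B in PC9 (without DMSO replicate 1 or 2 or long washout replicate 1 or 2 or 3, adjusted p = 0.0507 to 0.170), CAND1 in PC9 (without DMSO replicate 2 or long washout replicate 3, adjusted p = 0.0586 to 0.0643), CAND2 in HCC2935 (without DMSO replicate 1 or long washout replicate 3, adjusted p = 0.0615 to 0.0872) and KEAP1 in HCC2935 (without DMSO replicate 2 or long washout replicate 1 or 2, adjusted p = 0.0609 to 0.108).

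The partners of the cullins were followed by lists chosen, like the members, with earlier results of these data known. Of the RING and adaptor subunits (RBX1, RNF7, SKP1, ELOB, ELOC and DDB1), 10 of 24 tests were called lower and none higher at 24 h (median log2 -0.16). Of all tests, 24.5% were lower and 26.5% higher at 24 h, and 26.4% and 27.9% in DTPs, and the list counts below are to be read against these shares. In DTPs 13 of 24 tests of these subunits were lower and 1 higher (median -0.25). RBX1, the RING subunit of most cullin ligases, and ELOC, the elongin adaptor, were called lower at 24 h in all 4 lines, at -0.73 to -0.37 and -1.05 to -0.58. Of the neddylation enzymes and their cofactors, 20 of 39 tests were lower and 1 higher at 24 h. NAE1, a subunit of the NEDD8-activating enzyme, fell in all 4 lines (-1.0 to -0.56), as did UBE2F, the NEDD8-conjugating enzyme that serves CUL5 with RNF7 (-1.28 to -0.60). COP9 signalosome genes and SENP8 were lower in 24 and higher in 2 of 44 tests at 24 h and in 21 and 2 in DTPs. At 24 h COPS3 was at -1.06 to -0.89 and COPS6 at -0.73 to -0.52, both called in all 4 lines. For all genes tested the median was 0.064 at 24 h and 0.035 in DTPs. The atypical cullins CUL7 and CUL9 went the other way: all 8 tests were called higher at 24 h, CUL7 at 1.11 to 1.70 and CUL9 at 0.66 to 0.97, and in DTPs all but CUL9 in HCC2935 (0.0058). In PC9 both were lower after the long washout than in DTPs (-0.92 and -0.52).

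Substrate receptors showed no common direction, and their counts are to be read against the shares of all tests, 26.5% higher and 24.5% lower at 24 h and 27.9% and 26.4% in DTPs. Of the CUL4 receptors, 25 of 64 tests were higher and 22 lower at 24 h: DTL, which serves the degradation of replication factors, fell by most (-4.08 to -2.66), while WDTC1 rose in all 4 lines (0.87 to 1.67). F-box proteins of CUL1 gave 5 higher and 16 lower of 44. The cell-cycle proteins FBXO5 (-2.47 to -1.72), CCNF (-2.20 to -1.11) and SKP2 (-1.04 to -0.39) were lower in all 4 lines, and FBXO32, the muscle atrophy F-box protein, was higher in 3 (1.03 to 3.05) and at 0.16 in HCC827. CUL2 and CUL5 receptors gave 12 higher and 12 lower of 36, with KLHDC2 higher in all 4 lines (0.86 to 1.58) and LRR1 lower (-2.44 to -1.84). Receptors of CUL3 other than KEAP1 and KCTD5 gave 22 higher and 9 lower of 75 at 24 h and 29 and 8 in DTPs. Among them RHOBTB3 was higher in all 4 lines at 24 h (0.72 to 1.18), KCTD17, a relative of KCTD5, in PC9, HCC827 and HCC2935 (0.44 to 0.91), and KCTD9 was lower in all 4 (-0.81 to -0.41).

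NRF2 and its targets, read beside KEAP1, were called higher in 13 and lower in 15 of 44 tests at 24 h and in 11 and 17 in DTPs. The higher counts were close to the shares of all tests, 26.5% at 24 h and 27.9% in DTPs, and the members of the list moved in both directions. NFE2L2, the gene of NRF2 itself, was called higher at 24 h in all 4 lines (0.20 to 0.65) and in DTPs in 2 (0.16 to 0.64 over the 4 lines), and TXNRD1, thioredoxin reductase, was at 0.013 to 0.95 in DTPs with 1 call, a rise. Both were named after their values were seen. GCLM, a subunit of the glutathione-synthesising enzyme, was lower in DTPs of all 4 lines (-0.71, -0.97, -1.63 and -0.54 in PC9, HCC827, H1975 and HCC2935), and so was NQO1, a quinone reductase (-1.12 to -0.32). KEAP1 had gone up in PC9 and HCC827 and down in HCC2935 in the same comparison. HMOX1 was higher in DTPs of PC9 and HCC827 (0.93 and 1.57) and lower in H1975 (-2.12).

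Over the 20 group means, with the mean of each line removed, the members were compared by Pearson's r. KCTD5 and CUL1 had an r of 0.89, CUL2 and CUL4A 0.86, and CUL2 and CAND1 0.83, while CUL4B had -0.81 with KCTD5 and -0.75 with CUL1. CUL5 had values of -0.19 to 0.26 with the scaffolds and CAND1, and -0.42 with CAND2. Among 13806 genes, those most like KCTD5 were NUP205 (r = 0.98), DRAP1 (r = 0.97) and RANBP1 (r = 0.97), those most like CUL1 HSPH1 (r = 0.97), CACYBP (r = 0.97) and POMP (r = 0.96), and those most like CAND1 IMMT (r = 0.93), MRPS30 (r = 0.93) and DNAJB11 (r = 0.93). CUL4B was most like CRAT (r = 0.92), LRRC27 (r = 0.92) and ANKDD1A (r = 0.92), CUL2 most like MTREX (r = 0.96), NOL11 (r = 0.96) and CCT2 (r = 0.95), CUL3 most like NDUFA8 (r = 0.96), GTF3A (r = 0.94) and MRPL13 (r = 0.92) and CUL4A most like ACBD6 (r = 0.93), CNIH4 (r = 0.93) and THOC1 (r = 0.92). For CUL5 the closest were MED17 (r = 0.91), REXO2 (r = 0.91) and STK33 (r = 0.89), for KEAP1 SAYSD1 (r = 0.89), INHBB (r = 0.86) and BAP1 (r = 0.85) and for CAND2 GLI3 (r = 0.91), CX3CL1 (r = 0.90) and PARD6G (r = 0.89). The values of r with CAND2 include its HCC827 means, which rest on low counts and whose calls are set aside above. The 20 points share their libraries, lines and depth, and these values describe likeness only.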

How the data were processed

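Poly(A) libraries of the 60 samples were sequenced in pairs of reads by the authors, whose processing notes name HISAT2 2.1.0, Salmon 0.8.2 and hg38. The authors deposited estimated counts per gene (fractional, not normalized) and log2 TPM values with a pseudocount of 0.01. The role of each tool, the annotation and the use of strand are not given in the sources used here. Counts over TPM varied by at most 0.00049 (SD of log2) between libraries for the 9 members compared, so 1 length per gene lies behind the TPM, which totalled 0.806 to 0.891 M per library (M for 1000000).

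Groups and replicate numbers came from the sample titles. Estimated counts were rounded and fitted with edgeR 4.0.16 (R 4.3.3; TMM, filterByExpr, quasi-likelihood F-test), 1 fit for the 15 libraries of each line, and 1 fit of all 60 libraries for differences between lines. P-values were adjusted by Benjamini-Hochberg over all genes tested, with calls under 0.05. The fit was tested on simulated data. Replicates differed by more than counting error in each of 60 pairs. Depth is in the report, and counting error at these depths concerns CAND2 alone among the members. The alternatives were no filter, RLE size factors, a minimum of 10 counts per library, library size only, DESeq2 1.42.0, limma 3.58.1 on log2 TPM and log2(TPM + 1), a threshold of 0.01, a replicate block, own 6 libraries, 1 fit of 60 libraries, and each library left out. The own 6 libraries with a replicate block were added after seeing the data. The 10 members and all lists were chosen with earlier results of these data known. Named partner genes are up to 4 per list, those called in most of the 24 comparisons; KEAP1, KCTD5 and all other members are given throughout. Same-numbered libraries deviated together (every correlation over 0.1) in 2 of 24 comparisons, short washout against DTP in HCC827 and H1975.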

Additional observations from a re-analysis of the deposited data

Results flagged for a closer look

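The test of a difference between the 4 lines called 11 effects, 3 of 10 members at 24 h and 8 of 10 in DTPs. CAND2 in DTPs is counted among them, but its call is no support for a difference, as said below. Each of the others is a case where the change against DMSO was not the same in all lines. Of all genes 41.4% and 63.9% were called, so such differences are not particular to the members. At 24 h these were CUL3 (adjusted p = 2.31e-04), which fell in PC9, HCC827 and H1975 and was at 0.096 ± 0.086 in HCC2935, CUL4A (0.00382), with values from -0.51 in PC9 to -0.0092 in HCC2935, and CUL4B (0.00331), which rose by 0.90 in PC9 and 0.30 in HCC2935. In DTPs they included CUL5 (7.31e-06), called higher in HCC2935 only among the 4 lines. CUL2 (2.18e-05) was at -1.05 in PC9 and -0.22 in HCC827, and CUL1 (5.13e-05) at -0.89 in H1975 and -0.10 in HCC2935. CAND2 (1.47e-05) was lower in HCC2935, but its test includes HCC827, with 5 to 9 counts a library under DMSO. In HCC827 it passed the low-count filter only through the arms where it was high, so this p is no support for a difference. The others were CAND1 (8.10e-04), with -0.56 in PC9 and 0.00017 in H1975, CUL4A (0.00241), KEAP1 (0.00253), higher in PC9 and HCC827 and lower in HCC2935, and CUL3 (0.00691). CAND2 was filtered out and not tested with a minimum of 10 counts in every library and in limma, and the result for CUL4A in DTPs was lost with library size only and in limma on log2(TPM + 1).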

How the results depend on the processing

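Against DMSO, 21 to 28 member tests were called at 24 h over 12 alternatives (28 in the fit reported), 18 to 28 in DTPs (25) and 14 to 27 after the long washout (23). With 1 library left out the ranges were 25 to 28, 23 to 27 and 20 to 25. Kept under all alternatives that tested them and with any library left out were 21 of 28, 15 of 25 and 13 of 23 of these calls, 1 of 9 for DTPs against acute, 2 of 6 for long washout against DTPs and 0 of 1 for short washout. Those kept include CAND2, which not all alternatives tested. In DTPs and after the long washout of HCC827 it had 15 alternatives, and in DTPs of HCC2935 it had 16, where other members had 18. The HCC827 calls of CAND2 are set aside above. The 23 calls after the long washout became 15 at a threshold of 0.01, 14 in limma on either TPM scale and 15 with own 6 libraries and a replicate block. The 9 calls of DTPs against acute became 5 at 0.01 and 5 with own 6 libraries and the replicate block. The 6 of long washout against DTPs became 3 at 0.01, 3 with own 6 libraries and 2 with the replicate block added, and 3 to 7 with 1 library left out, 3 without PC9 DTP replicate 2 or long washout replicate 2. The 1 of short washout became 4 in DESeq2, 0 at 0.01 and with 60 libraries, 2 in limma on log2(TPM + 1), 3 with own 6 libraries and 0 to 1 with 1 library left out. The 3 differences between lines at 24 h became 5 with library size only. CUL4A in PC9 DTPs against acute reversed from -0.086, not called, to 0.19 and 0.18 in limma on log2 TPM and log2(TPM + 1). With each library's TPM total made equal, the summed TPM of the 6 cullins under DMSO was 409 in PC9, 303 in HCC827, 345 in H1975 and 275 in HCC2935. The cause of these moves was not tested. With library size only and with limma on log2 TPM, the median of the genes tested moved by over 0.1 in 3 and 5 of 24 comparisons. The moves were up to 0.14 and 0.24, in PC9 and, for TPM, HCC2935. The TPM medians are over a smaller set of genes. The replicate block in the fit of 15 libraries moved no count by over 1.5 times; where libraries share only a number it tells little. Single-library checks of the differences between lines were run for the 12 DMSO libraries only. Depth limits CAND2, at 5 to 114 counts.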
